A study of Mus musculus with 24 samples.

Results

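The genes described here encode the scaffold of the excitatory postsynapse: Dlg1, Dlg2, Dlg3 and Dlg4, Dlgap1, Dlgap2 and Dlgap3, and Shank1, Shank2 and Shank3. They were chosen by name, as 10 genes of the 55177 with transcripts in the deposited tables, and their estimated counts were summed over their transcripts in all 24 libraries. Primary neurons were cultured from the cortex of mouse embryos at embryonic day 16.5, and RNA was sequenced at day in vitro (DIV) 7 or 18. All cultures were silenced overnight with 1 µM tetrodotoxin and 100 µM D-AP5, which block sodium channels and NMDA receptors, and then either left at rest or depolarized with 50 mM KCl for 30 min. The DIV7 cultures were naive wild-type neurons treated with 0.1% DMSO, 2 at rest and 2 depolarized, sequenced as poly(A)-selected RNA. The DIV18 cultures, sequenced as rRNA-depleted RNA, carried either a non-targeting guide (NT; 2 libraries at rest and 2 after KCl) or a Smarcc2 knockout (KO). Smarcc2 encodes a subunit of the BAF chromatin remodelling complex. The knockout cultures also carried an empty vector (3 resting, 3 depolarized), wild-type Smarcc2 (KO with WT; 2 and 3), the S586E substitution (3 resting) or the S586A substitution (2 depolarized). Every knockout group therefore differs from NT in the guide as well, and the guide and the loss of Smarcc2 cannot be told apart by a comparison with NT. The labels take the cortex of each embryo as a biological replicate.

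At glutamatergic synapses the Dlg proteins (PSD-95 and its relatives) sit under the membrane and hold NMDA receptors, AMPA receptor complexes and adhesion proteins by their PDZ domains. The Dlgap proteins bind the guanylate kinase-like domain of Dlg proteins on one side and the PDZ domain of Shank on the other. Shank proteins form the deeper layer and bind Homer, which reaches metabotropic receptors, and regulators of actin. Loss of Shank3 causes Phelan-McDermid syndrome in people, and this gene is among the most studied of the postsynaptic density for that reason.

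The cultures held the cells the labels name. The neuronal markers Map2, Tubb3, Rbfox3, Snap25, Syt1 and Stmn2 were detected in all 24 libraries, with none at 0, and their summed level was 891 to 1322 TPM at DIV18. Libraries held 24536056 to 30135576 estimated counts at DIV7 and 14510199 to 24024959 at DIV18. Smarcc2 lay at 237 to 283 normalised CPM in the 4 NT libraries, and at 47.1 to 64.1 CPM in the 6 libraries of the knockout with vector. All 10 scaffold genes passed the filter on low counts at both ages. Normalised CPM (counts scaled to TMM-adjusted library size) compares 1 gene between libraries of an age, and TPM, which is also scaled to transcript length, compares genes with each other. A gene was called where its Benjamini-Hochberg adjusted p, over all genes tested, was under 0.05.

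All 10 genes lie on the plus strand of GRCm38, as annotated by GENCODE M21, and are given with their whole extent. Dlg1 (ENSMUSG00000022770.17) lies at chr16:31663443-31875129, Dlg2 (ENSMUSG00000052572.17) at chr7:90476672-92449247, Dlg3 (ENSMUSG00000000881.12) at chrX:100767722-100818410 and Dlg4 (ENSMUSG00000020886.17) at chr11:70016942-70047522. Dlgap1 (ENSMUSG00000003279.17) lies at chr17:69969073-70821413, Dlgap2 (ENSMUSG00000047495.15) at chr8:14095865-14847680 and Dlgap3 (ENSMUSG00000042388.14) at chr4:127169204-127237022. Shank1 (ENSMUSG00000038738.15) lies at chr7:44310253-44360572, Shank2 (ENSMUSG00000037541.21) at chr7:144001928-144424494 and Shank3 (ENSMUSG00000022623.16) at chr15:89499623-89560261.

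The results turn on Shank3, which was lower in the knockout cultures, and on Dlg1, which responded to KCl at DIV7. Bases before an annotated RefSeq start of each are shown here (GRCm38.p6, plus strand), for a reader who wants the sequence context of the genes. Capitals mark matches, on either strand, to the GC box (GGGCGG) and the Egr site (GCGTGGGCG) in Shank3, and to the E-box (CACGTG) and the GC box in Dlg1. The Shank3 stretch is chr15:89499358-89499607 and the Dlg1 stretch is chr16:31663685-31663908. Shank3 has 1 start window in the table and Dlg1 has 4. The Dlg1 window shown is the one with the most annotated exon starts close by, and it lies within the extent of the gene given above, after its first annotated start. It holds 224 bases because the stretch was ended before the next annotated exon.
Shank3: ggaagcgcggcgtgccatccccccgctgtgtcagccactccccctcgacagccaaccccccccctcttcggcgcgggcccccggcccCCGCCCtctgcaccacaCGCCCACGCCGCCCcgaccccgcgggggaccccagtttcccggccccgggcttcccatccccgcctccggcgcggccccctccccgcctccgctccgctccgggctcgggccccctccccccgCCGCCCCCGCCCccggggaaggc
Dlg1: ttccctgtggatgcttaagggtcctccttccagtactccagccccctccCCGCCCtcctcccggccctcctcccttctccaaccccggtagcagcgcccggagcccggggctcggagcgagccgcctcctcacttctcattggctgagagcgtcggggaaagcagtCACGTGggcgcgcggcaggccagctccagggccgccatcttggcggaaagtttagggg
The Shank3 stretch had a GC content of 82.4%, against a median of 52.4% over all windows. It held 4 matches to the GC box, which was found in 32.7% of the 32851 windows of that length, and 1 match to the Egr site, found in 0.536%. The capitals in the stretch run together where matches overlap or adjoin. The Dlg1 stretch held 1 E-box, found in 5.13% of windows, and 1 GC box, found in 29.1%. The cAMP response element (TGACGTCA), its shorter form (TGACG) and the AP-1 site (TGANTCA) had no match in either stretch. These matches describe letters only. No binding or chromatin data are part of these files.

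**Figure D1:**
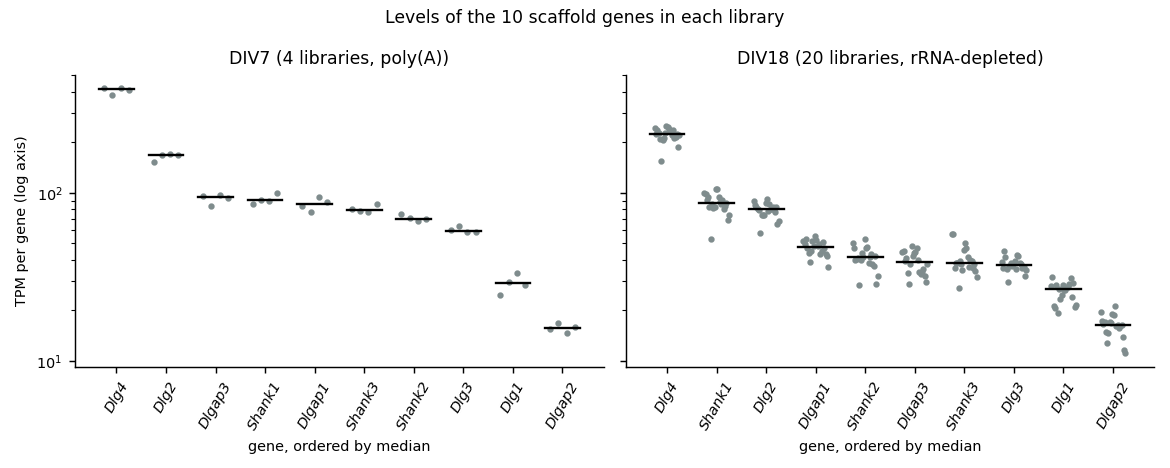
Level of each scaffold gene in TPM per gene (log axis) in each library, at DIV7 (4 libraries) and DIV18 (20 libraries); each dot is a library, the bar is the median and genes are ordered by it. Dlg4 stands highest and Dlgap2 lowest at both ages.

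Dlg4, which encodes PSD-95, had the highest level at both ages. It stood at 380 to 421 TPM at DIV7 and 154 to 251 TPM at DIV18, clear of the next gene in every library of each age. Dlgap2 was the lowest, at 14.6 to 16.8 TPM at DIV7 and 11.1 to 21.3 TPM at DIV18. At DIV7 Dlg2, which encodes PSD-93, came second at 153 to 171 TPM. Dlgap3, Shank1, Dlgap1 and Shank3 followed, with medians of 94.4, 90.2, 85.8 and 79.4 TPM, and each of them overlapped the next in range. Shank2 (median 70.2 TPM), Dlg3 (59.4 TPM), Dlg1 (29.1 TPM) and Dlgap2 (15.8 TPM) each lay below the range of the gene before. At DIV18 Shank1 (median 86.5 TPM) and Dlg2 (79.7 TPM) overlapped, and so did Dlgap1 (47.7 TPM), Shank2 (41.3 TPM), Dlgap3 (38.6 TPM), Shank3 (38.2 TPM) and Dlg3 (37.1 TPM), each with the next. Dlg1 had a median of 26.6 TPM there and Dlgap2 one of 16.4 TPM, and neighbours in this order (Dlg3, Dlg1, Dlgap2) overlapped too.

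Within families, Dlg4 made up 59.3 to 63.8% of the summed Dlg TPM at DIV7 and 58.5 to 64.1% at DIV18. Dlgap1 made up 42.9 to 45.8% of the summed TPM of the 3 Dlgap genes at DIV7 and 41.3 to 50.6% at DIV18. Shank1 made up 35.6 to 39.0% of Shank TPM at DIV7 and 48.2 to 54.8% at DIV18, and these ranges do not overlap. The ages differ in library type, constructs and DMSO as well as in days, and these cannot be told apart. The direction of a change in level with age depends on the scale: the median log2 ratio of the 10 genes, resting NT over resting DIV7, was -0.62 in TPM and 0.80 after TPM were rescaled to nuclear protein-coding genes. No direction with age is given for that reason.

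The transcripts behind these levels also differed between the ages. Transcripts annotated as protein_coding held 39.8 to 65.3% of Dlg1 TPM at DIV7 and 82.2 to 96.6% at DIV18. The gap lay mainly in Dlg1-213, a 470-base processed transcript listed at 11.9 ± 4.64 TPM (SD, n = 2) in resting DIV7 and 0.937 ± 0.348 TPM (SD, n = 2) in resting NT. That estimate rested on 31.6 to 56.0 estimated counts per DIV7 library. Shank1 went the other way: its coding share was 90.1 to 95.7% at DIV7 and 64.0 to 76.3% at DIV18, where Shank1-206, a retained intron of 987 bases, was listed at 21.1 ± 0.0860 TPM (SD, n = 2) in resting NT. Resting DIV7 had 1.501 ± 0.743 TPM (SD, n = 2) of it. Poly(A) selection and rRNA depletion sample unspliced RNA differently, and their part here was not tested.

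Depolarization at DIV7 asks which of these genes responds within 30 min in young neurons. Of the 10 genes, 3 rose and 0 fell. They were Dlg1 (SAP97), which also traffics receptors, Dlgap1, a linker between Dlg and Shank, and Dlg2. The changes were small beside those of Homer1, the Shank-binding adaptor with a well-known activity-induced short form (log2 fold change 1.72, SE 0.0452), and Arc, an immediate early gene that regulates AMPA receptor endocytosis (3.23, SE 0.126).

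In the resting DIV7 libraries Dlg1 stood at 32.2 and 30.3 CPM, and in the depolarized ones at 43.7 and 41.7 CPM. The groups did not overlap, and the log2 fold change was 0.45 (SE 0.0680, 95% interval 0.29 to 0.61, edgeR adjusted p = 0.00657), a rise of 36.6%. Dlgap1 was at 218 and 210.2 CPM at rest and at 259 and 251 CPM under KCl. Both depolarized libraries lay above both resting ones, with a log2 fold change of 0.25 (SE 0.0436, edgeR adjusted p = 0.0104). Dlg2 was at 389.8 and 389.4 CPM at rest and at 437 and 436 CPM under KCl, again without overlap (0.16, SE 0.0363, edgeR adjusted p = 0.0237).

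The edgeR quasi-likelihood test called 17% of all 19822 genes tested at DIV7, 7.34% as higher and 9.67% as lower. The median log2 fold change of the 10 scaffold genes was 0.13, beside -0.00 over all genes tested. The remaining genes did not pass. Dlg4 was at 610 and 557 CPM at rest and 654 and 632 CPM under KCl (log2 fold change 0.14, edgeR adjusted p = 0.105). Shank1 was at 373 and 399 CPM at rest and 417 and 454 CPM under KCl (0.17, edgeR adjusted p = 0.0736). Shank3 was at 189 and 185 CPM at rest and 202 CPM in both depolarized libraries (0.11, edgeR adjusted p = 0.117). Dlgap3 was at 193.7 and 170.1 CPM at rest and 203.9 and 194.0 CPM under KCl (0.13, edgeR adjusted p = 0.242). Dlg3, Dlgap2 and Shank2 overlapped between the states, with log2 fold changes of -0.03, -0.04 and -0.00 and 95% intervals of -0.13 to 0.08, -0.21 to 0.13 and -0.12 to 0.12.

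**Figure D2:**
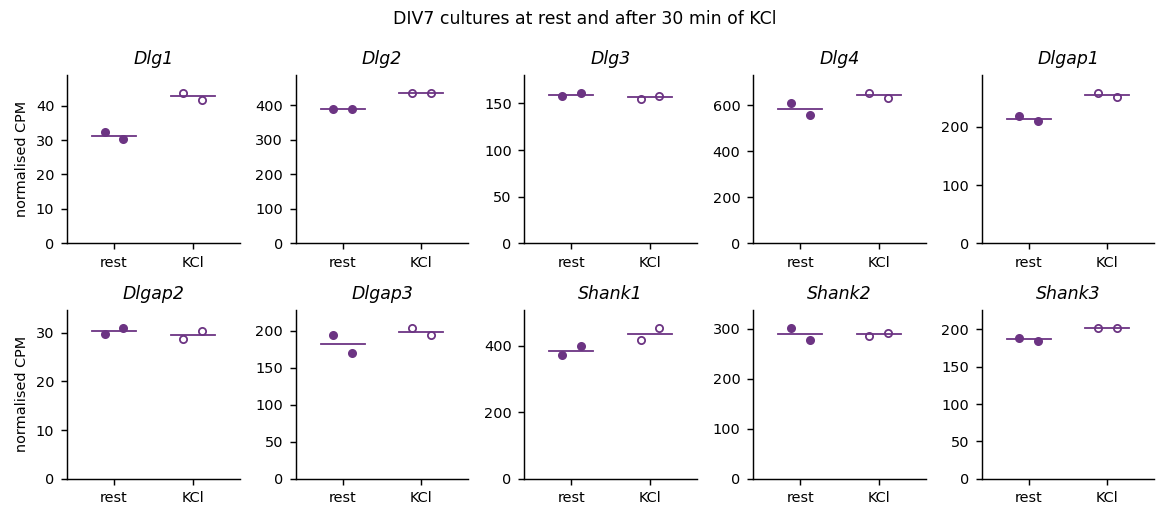
Normalised CPM of each scaffold gene in the DIV7 libraries (axes start at 0); filled points are resting and open points depolarized libraries, n = 2 each, and bars are group means. Dlg1, Dlgap1 and Dlg2 passed the test.

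The size of the DIV7 rises depends on how transcript length enters. With offsets from the effective lengths of the transcripts, which change when a gene's transcript mix changes, 0 of the 10 genes passed, and Dlg1 had a log2 fold change of 0.24 (edgeR adjusted p = 0.257). Among Dlg1 transcripts, the full-length coding form Dlg1-203 stood at 8.62 and 5.89 CPM at rest and 15.5 and 13.4 CPM under KCl. Over 11 alternatives in all, Dlg1 passed in 10, Dlgap1 in 9 and Dlg2 in 5. In a fit of protein_coding transcripts alone Dlg1 had a log2 fold change of 0.59 (edgeR adjusted p = 0.00557).

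Astrocyte markers were lower after KCl at DIV7, by a median log2 fold change of -0.19 over 8 genes, with 2 called (Gfap -0.49), and their summed level was 260.4 to 290.5 TPM at rest and 227 to 237 TPM under KCl. Oligodendrocyte-lineage markers summed to 52.9 to 56.7 TPM and 46.0 to 48.6 TPM, with none called and Sox10 at 0 in 1 library of each state. Of the 6 neuronal markers, Map2 (0.20) was called higher and Tubb3 (-0.53) lower. Of the 4 excitatory neuron markers, 3 were below 0 and 2 were called lower (Tbr1, -0.30, and Neurod6, -0.15). The 3 inhibitory neuron markers were all above 0, with 0 called. The part of these markers in the response was not tested. Of 47 postsynaptic partner genes in the lists of adaptors, signalling proteins and receptors, 7 rose and 2 fell at DIV7. Of all genes 7.34% were called higher and 9.67% lower. The partners' share called in either direction is near the 17% of all genes, but more partners rose than fell, unlike all genes. Besides Homer1 and Arc, Sipa1l1, a Rap GTPase-activating protein of spines, rose by 0.33 on the log2 scale, and Grin2a, an NMDA receptor subunit, fell by 0.28.

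At DIV18 none of the 10 genes passed between the resting and the depolarized state, in any of the 3 constructs measured in both. By edgeR 1 of the 10 had an unadjusted p under 0.05 in each construct, and DESeq2 called 0 in each. That gene was Shank3 in NT (-0.18) and Dlgap3 in the knockout with vector (-0.23) and with WT (-0.25). Of all 20940 genes, 906 had an unadjusted p under 0.05 in NT, 2167 in the knockout with vector and 1040 with WT. The test called 0.00955%, 0.0716% and 0.043% of the 20940 genes in the same order, so few genes of any kind passed. Dlg1 had a log2 fold change of -0.16 (95% interval -0.48 to 0.17) in NT, 0.11 (-0.15 to 0.38) in the knockout with vector and 0.03 (-0.27 to 0.32) in the knockout with WT. Homer1 had 0.19, 0.24 and 0.25 in the same order, none called. Arc reached the threshold in the knockout with vector alone (1.90, edgeR adjusted p = 0.0387), with 1.73 in NT and 2.21 in the knockout with WT.

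The difference between the ages was tested as the DIV7 response minus the NT response at DIV18. The 2 responses also differ in library type, guide and DMSO, and these cannot be told apart from days. No scaffold gene passed with edgeR or DESeq2, and 3 had an unadjusted p under 0.05. Of all 22459 genes 2522 had an unadjusted p under 0.05, and edgeR called 1.82%. The difference for Dlg1 was 0.62 (SE 0.209, edgeR adjusted p = 0.168), and for Homer1 it was 1.55 (SE 0.121, edgeR adjusted p = 1.42e-07). No scaffold gene was called for a difference in response between constructs, by edgeR or DESeq2. For the knockout with vector minus NT, 1 of the 10 had an unadjusted p under 0.05 (Dlgap2, -0.35, edgeR adjusted p = 0.534), and for WT minus vector 0 had. Over all genes 0% was called in both tests, with 1845 and 768 genes at an unadjusted p under 0.05 by edgeR, and with 4 and 0 genes called by DESeq2.

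**Figure D3:**
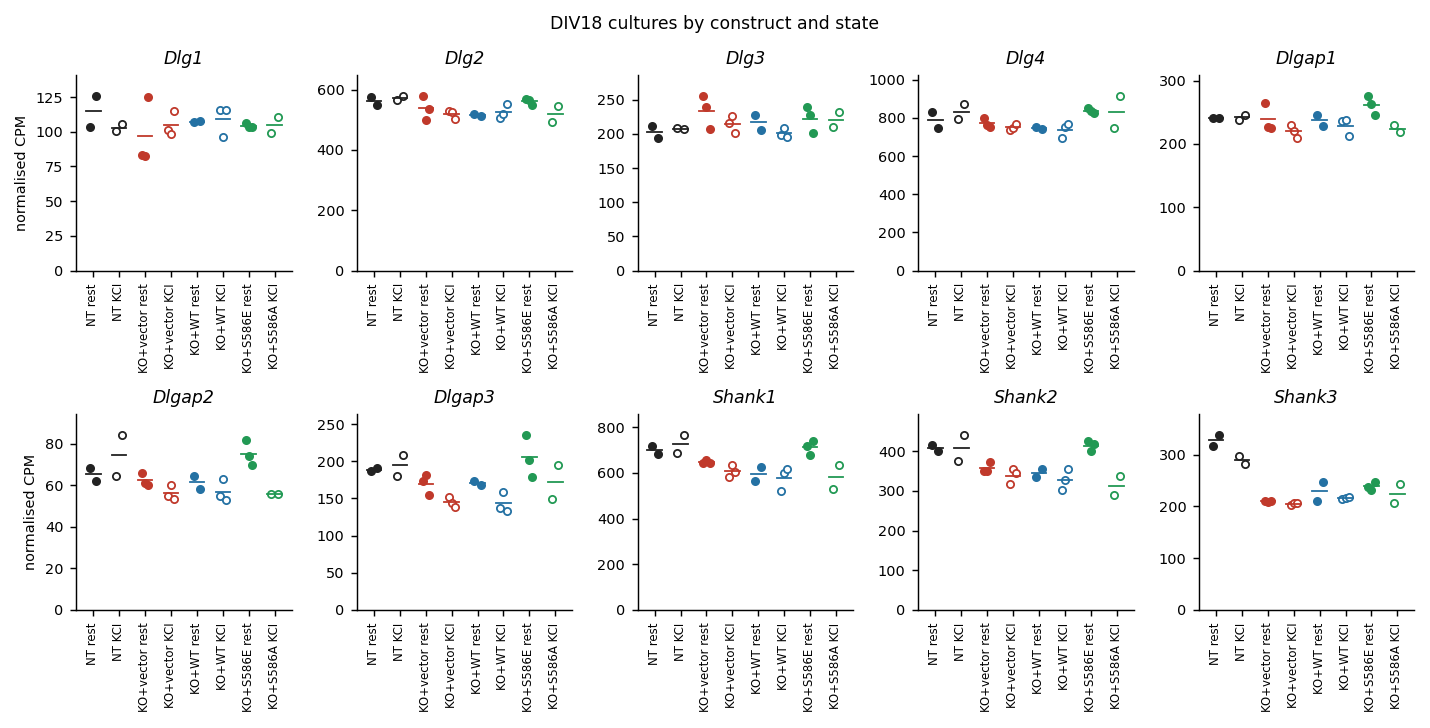
Normalised CPM of each scaffold gene in the 20 DIV18 libraries (axes start at 0); filled points are resting and open points depolarized libraries, and bars are group means. In the Shank3 panel all 16 knockout libraries (203 to 248 CPM) lie below all 4 NT libraries (283 to 338 CPM).

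The clearest difference among the 10 genes was that of Shank3 in the Smarcc2 knockout. At rest Shank3 stood at 317 and 338 CPM in the NT libraries and at 210.0, 209.0 and 209.9 CPM in the knockout with vector. The 3 knockout libraries were nearly equal and all lay below both controls. The log2 fold change was -0.65 (SE 0.0764, 95% interval -0.81 to -0.49, edgeR adjusted p = 2.16e-04); the level fell by 36.1%. It was the 1 scaffold gene of 10 that was called, while the test called 5.9% of all 20940 genes, 2.13% as higher and 3.77% as lower.

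Under KCl the difference was there again. Shank3 was at 297 and 283 CPM in NT and at 203, 206.4 and 206.2 CPM in the knockout with vector. The log2 fold change was -0.50 (SE 0.0766, 95% interval -0.66 to -0.34, edgeR adjusted p = 0.00270), and the groups did not overlap. Here 2 of the 10 genes fell, beside 2.67% of all genes called, 0.726% as higher and 1.95% as lower. The counts over all genes depend on single libraries more than the Shank3 call does. Without NT replicate 2, 1236 calls over all genes became 100 for the resting knockout with vector, and 560 became 37 for the depolarized one. Shank3 passed in all 13 alternative analyses of either state. Its log2 fold change lay between -0.70 and -0.44 in the resting comparison, and between -0.53 and -0.37 in the depolarized one.

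The second gene called under KCl was Dlgap2. It stood at 64.6 and 84.2 CPM in NT and at 54.6, 60.3 and 53.1 CPM in the knockout with vector. The groups did not overlap, with a log2 fold change of -0.41 (SE 0.107, edgeR adjusted p = 0.0477). Dlgap2 passed in 3 of 13 alternatives. Without NT replicate 2 the log2 fold change was -0.21 (edgeR adjusted p = 0.657), and without knockout replicate 1, 2 or 3 it was -0.39, -0.46 or -0.37 (edgeR adjusted p = 0.144, 0.0680 or 0.150). At rest the log2 fold change of Dlgap2 was -0.06 (95% interval -0.29 to 0.16). Dlgap3 had nearly the same value under KCl (-0.43, SE 0.118, edgeR adjusted p = 0.0595) but was not called. DESeq2 called it.

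Shank1 and Shank2 had negative log2 fold changes in both states and were called in neither. At rest Shank2 was at 416 and 402 CPM in NT and at 349.6, 350.3 and 372 CPM in the knockout with vector (log2 fold change -0.20, edgeR adjusted p = 0.216). Shank1 was at 719 and 682 CPM in NT and at 645, 657 and 645 CPM in the knockout (-0.11, edgeR adjusted p = 0.538). Under KCl the values were -0.27 for Shank2 (edgeR adjusted p = 0.113) and -0.26 for Shank1 (edgeR adjusted p = 0.134). Shank3 was thus a smaller share of the Shank family in the resting knockout, at 22.4 ± 1.08% of Shank TPM (SD, n = 3), than in resting NT, at 27.9 ± 0.579% (SD, n = 2). Under KCl the shares were 23.3 ± 1.35% (SD, n = 3) and 24.7 ± 0.0603% (SD, n = 2), and the highest knockout library, at 24.73%, lay between the 2 NT libraries.

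Among the Dlg genes none passed in either state. Dlg3, the X-linked SAP102 gene, had a log2 fold change of 0.21 at rest (95% interval 0.01 to 0.41, edgeR adjusted p = 0.211) and of 0.05 under KCl. Dlg1 was at 103 and 126 CPM in resting NT and at 83.2, 82.8 and 125 CPM in the resting knockout, where replicate 3 stood apart from the other two (-0.24, edgeR adjusted p = 0.348). Dlg4 had -0.03 at rest (95% interval -0.21 to 0.14) and -0.15 under KCl (-0.33 to 0.02). Dlg2 had -0.06 and -0.14, and Dlgap1 had -0.02 and -0.14. The median over the 10 genes was -0.09 at rest and -0.21 under KCl, beside 0.02 over all genes in both.

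**Figure D4:**
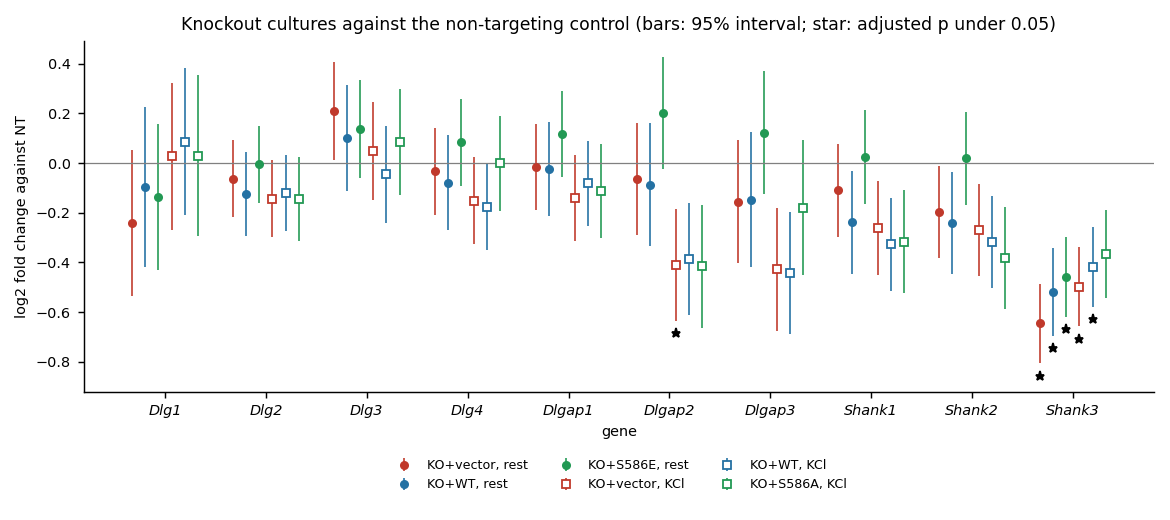
Log2 fold change of each scaffold gene in the 6 comparisons of a knockout group with the NT group of its state; circles are resting and squares depolarized, bars are 95% intervals and stars mark an edgeR adjusted p under 0.05. Shank3 carries 5 of the 6 stars, and comparisons of a state share their 2 NT libraries.

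With Smarcc2 added back, Shank3 stayed below the NT level in every library. Smarcc2 itself reached 737 to 1340 CPM in the add-back libraries, above all NT libraries. Shank3 was at 209.8 and 248 CPM in the resting knockout with WT, and at 214, 217 and 219 CPM in the depolarized one. With S586E at rest it was at 237, 232 and 247 CPM, and with S586A under KCl at 207 and 243 CPM. All of these libraries lay below every NT library. The comparisons with NT share their NT libraries within a state, so their values are set side by side and are not independent of each other. For WT the log2 fold change of Shank3 was -0.52 at rest (SE 0.0846, edgeR adjusted p = 0.0152) and -0.42 under KCl (SE 0.0766, edgeR adjusted p = 0.0314). For S586E it was -0.46 at rest (SE 0.0764, edgeR adjusted p = 0.00621), and for S586A -0.37 under KCl (SE 0.0847, edgeR adjusted p = 0.0638), which did not pass. Shank3 was the 1 scaffold gene of 10 called in each of the first 3 of these comparisons. Of all genes, the test called 0.105% for WT at rest (0.0764% higher, 0.0287% lower), 0.201% for WT under KCl (0.0764% higher, 0.124% lower), 2.78% for S586E (1.04% higher, 1.74% lower) and 0.43% for S586A. For S586A 0 of the 10 were called by edgeR, 4 had an unadjusted p under 0.05 and DESeq2 called 2, Shank2 and Shank3. Over all genes 2472 of 20940 had an unadjusted p under 0.05 by edgeR there, and DESeq2 called 377 of 41141.

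These add-back calls are less firm than the one with vector. Without NT replicate 2 the calls over all genes went from 583 to 3 for S586E, from 22 to 3 for WT at rest, from 42 to 1 for WT under KCl and from 90 to 4 for S586A. With WT at rest Shank3 passed in 7 of 12 alternatives, and without WT replicate 1 its log2 fold change was -0.40 (edgeR adjusted p = 0.470). Leaving out NT replicate 1 (-0.57, adjusted p = 0.0866) or NT replicate 2 (-0.47, adjusted p = 0.259) also ended the edgeR call. With WT under KCl it passed in 4 of 13, and the omission of any 1 of the 5 libraries ended the call (edgeR adjusted p 0.0661 to 0.352). With S586E it passed in 11 of 13, and without NT replicate 2 it had -0.41 (edgeR adjusted p = 0.242).

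Against the vector, none of the 10 genes was called with any construct, with edgeR or DESeq2. For WT at rest Shank3 had a log2 fold change of 0.13 (95% interval -0.03 to 0.29, edgeR adjusted p = 0.570), and under KCl of 0.08 (-0.07 to 0.22, edgeR adjusted p = 0.999). For S586E it had 0.19 (0.04 to 0.33, edgeR adjusted p = 0.542), with all 3 libraries above all 3 vector libraries, and for S586A 0.13 (-0.03 to 0.29, edgeR adjusted p = 0.491). The numbers of the 10 with an unadjusted p under 0.05 were 0, 0, 4 and 0, the 4 with S586E being Dlgap2, Dlgap3, Shank2 and Shank3. Of all 20940 genes, 2316, 835, 1560 and 2730 had an unadjusted p under 0.05 in the same order. The share of all genes called by edgeR was 0.0143%, 0.00955%, 0.0191% and 0.00955%. The vector group was under NT by 0.65 at rest and by 0.50 under KCl, with the intervals given above. Those values rest on the same vector libraries as these, and the sizes were not tested against each other.

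The substituted forms were also set against WT. S586E at rest gave higher values than WT for 9 of the 10 genes, with a median log2 fold change of 0.15 beside 0.01 over all genes, and 0 passed. This was not particular to the scaffold genes. The 6 neuronal markers had a median of 0.18, with 0 below 0, and the 47 partner genes one of 0.13, with 9 below 0. The 8 astrocyte markers had a median of -0.07. Shank2 was at 426, 399.7 and 417 CPM with S586E and at 336 and 356 CPM with WT (0.26, edgeR adjusted p = 0.237). Shank1 was at 718, 680.1 and 741 CPM with S586E and at 563 and 625 CPM with WT (0.26, edgeR adjusted p = 0.237). Dlgap2 was at 81.6, 73.8 and 69.5 CPM with S586E and at 64.3 and 58.3 CPM with WT (0.29, edgeR adjusted p = 0.270). Dlgap3 was at 235, 201 and 179 CPM with S586E and at 173 and 167 CPM with WT (0.27, edgeR adjusted p = 0.343). These 4 genes had an unadjusted p under 0.05, as did 2696 of all 20940 genes, of which edgeR called 0%, while DESeq2 called 331 genes but 0 of the 10.

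For S586A against WT under KCl the median log2 fold change of the 10 was -0.01 and 0 were called, with 2 at an unadjusted p under 0.05 (Dlgap3, 0.26; Dlg4, 0.17). Of all genes 0% was called by edgeR, 1824 had an unadjusted p under 0.05, and DESeq2 called 18. The intervals for Shank3 were -0.10 to 0.22 for S586E against WT and -0.11 to 0.21 for S586A against WT. S586E was measured at rest and S586A under KCl, so the 2 substitutions were not compared with each other.

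The lower Shank3 in the knockout lay in its main transcript. Shank3-203, the protein_coding form of 7365 bases that spans the gene (chr15:89499623-89560261), was at 252 and 293 CPM in resting NT and at 155, 146 and 162 CPM in the resting knockout with vector, a log2 ratio of -0.82 without a test. Over all DIV18 libraries it ranged from 224 to 293 CPM in the 4 NT libraries (median 248) and from 146 to 198 CPM in the 16 knockout libraries (median 169). The ranges do not touch. The other Shank3 transcripts, of which 8 are listed, summed to 45.6 to 65.3 CPM in NT (median 55.2) and to 31.7 to 71.6 CPM in the knockout libraries (median 49.3), and these ranges overlap. Reads shared between transcripts are split by estimation, so the division between forms is less certain than their sum. Gm15609, a lincRNA, overlaps Shank3 on the opposite strand, and the strandedness of the counting is not given in the sources used here.

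**Figure D5:**
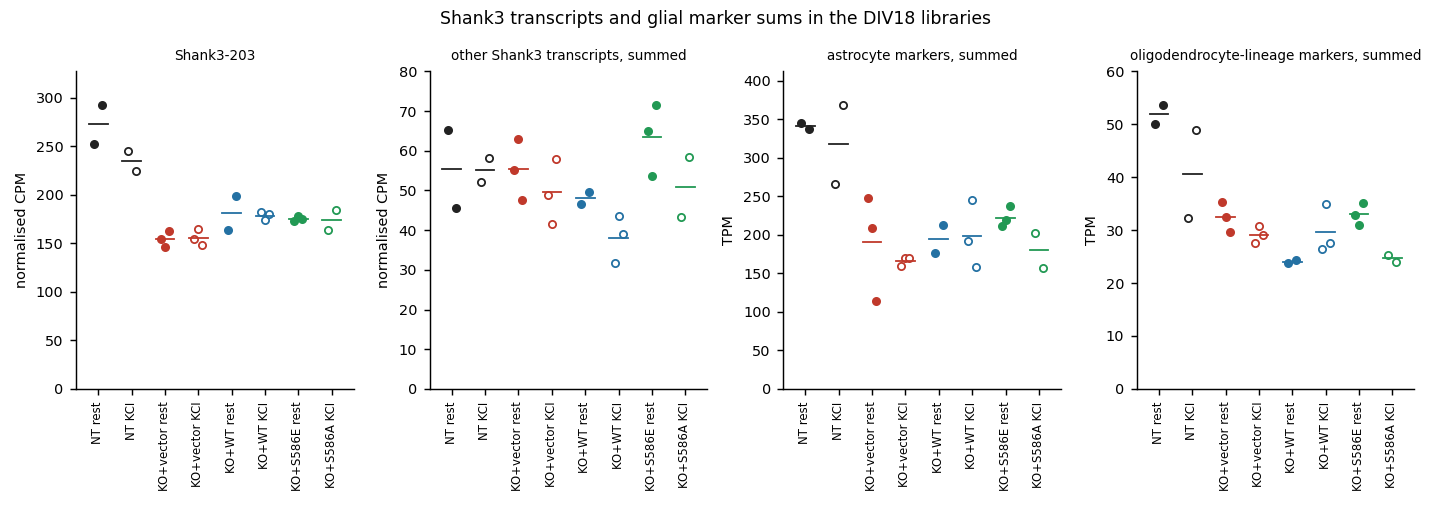
The first 2 panels show normalised CPM of Shank3-203 and of all other Shank3 transcripts in the DIV18 libraries, and the last 2 show summed TPM of astrocyte and oligodendrocyte-lineage markers; filled points are resting, open points depolarized and bars are means (axes start at 0). Shank3-203 in NT (224 to 293 CPM) lies above all knockout libraries (146 to 198 CPM). Astrocyte markers sum to 266 to 369 TPM in NT and to 114 to 247 TPM in the knockout libraries. TPM sums also vary with the share of coding RNA in each library.

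Other features of the libraries moved with the guide too. In bulk RNA fewer cells of a type and less RNA per cell cannot be told apart. Sums of TPM also depend on the rest of the library. Nuclear protein-coding genes held 21.2% of TPM in resting knockout with WT replicate 1 and 30.2% in depolarized NT replicate 1, the extremes at DIV18. The ranges of summed TPM below were not rescaled for this. Astrocyte markers (8 genes) summed to 266 to 369 TPM in NT and to 114 to 247 TPM in the knockout libraries, and in the knockout with vector at rest all 8 had a log2 fold change below 0, with 2 called. Oligodendrocyte-lineage markers (8 genes) summed to 32.3 to 53.7 TPM in NT and 23.8 to 35.2 TPM in the knockout libraries. Of these 4 were called lower at rest, among them Pdgfra, and Sox10 was at 0 in all 3 resting libraries with vector. Neuronal markers summed to 1239 to 1298 TPM in NT and 891 to 1322 TPM in the knockout libraries, with none of 6 called at rest and 1 called under KCl (Snap25, -0.36). Of the 4 excitatory neuron markers, Slc17a6 (0.84) and Tbr1 (0.84) were called higher at rest, and 1 was below 0 (-0.07). Their summed level was 573 to 574 TPM in resting NT and 474 to 570 TPM in the resting knockout with vector. Under KCl 0 of the 4 were called, with a median of 0.03. The neuronal list ranged from -0.18 to 0.22 at rest: Rbfox3, the gene of the neuronal antigen NeuN, was at 249 and 253 CPM in NT and at 231, 226 and 206 CPM in the knockout with vector, while Map2, a dendritic microtubule protein gene, was at 1061 and 1041 CPM in NT and at 1229, 1068 and 1113 CPM in the knockout. At rest the 3 inhibitory neuron markers ran from -0.31 to 0.29, with a median of 0.22 and 0 called. Under KCl all 8 astrocyte markers and all 3 inhibitory neuron markers had log2 fold changes below 0, with 3 and 0 called. The inhibitory ones lay between -0.64 and -0.60. All 6 neuronal markers were below 0 there too, between -0.36 and -0.12 with a median of -0.18. Of 3 microglial markers tested, 1 was called lower at rest, with a median of -1.14. The part of these markers in the Shank3 difference was not tested.

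Shank3 is also rich in G and C, at 62.4% over its longest transcript, higher than 98.5% of the genes tested. After an adjustment for each library's trend with GC content, added after the data were seen, its log2 fold change in the knockout with vector was -0.44 at rest (edgeR adjusted p = 0.0138) and -0.42 under KCl (edgeR adjusted p = 0.0356). Under the same adjustment the WT and S586E calls against NT were lost, with -0.49 (edgeR adjusted p = 0.103) for WT at rest, -0.37 (0.174) for WT under KCl and -0.36 (0.0526) for S586E. Shank1 (61.4%) and Dlgap3 (63.9%) have similar GC contents.

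The partner genes of the scaffold changed in both directions in the knockout with vector. At rest 2 of 47 rose and 5 fell, beside 2.13% of all genes called higher and 3.77% called lower. Those with the smallest p were Grin1, the obligatory NMDA receptor subunit (-0.44, edgeR adjusted p = 0.00164), Baiap2, an actin regulator that binds Shank (-0.40, edgeR adjusted p = 0.0152), Homer2 (-0.41, edgeR adjusted p = 0.0168) and Mpp2, a membrane-associated guanylate kinase (-0.26, edgeR adjusted p = 0.0277). Under KCl 0 rose and 4 fell, beside 0.726% and 1.95% of all genes, among them Grin1 (-0.38), Agap2 (-0.50) and Homer2 (-0.43). The median log2 fold change over the 47 was -0.03 at rest and -0.10 under KCl. Of the 3 genes of the inhibitory postsynapse, 1 fell in each state, Nlgn2 (-0.27 and -0.29). With S586E against NT 1 of the 47 rose and 1 fell (Lrrtm1, 0.51, and Grin1, -0.28). In the comparisons of WT and of S586A with NT 0 were called. There 6 and 11 of 47 for WT and 9 of 47 for S586A had an unadjusted p under 0.05. Of all 20940 genes, 1650 and 2300 for WT and 2472 for S586A had an unadjusted p under 0.05.

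Across the 20 DIV18 libraries, which share groups, depth and composition, Shank1 and Shank2 had the most similar profiles (Pearson r of log2 CPM 0.95), followed by Dlgap2 and Dlgap3 (0.82). Dlg1 and Dlg3 ran most nearly opposite (-0.67). Among genes outside the list with a mean of at least 10 CPM, those most like Shank3 were 2610507B11Rik (0.95) and Ttyh3 (0.91). Those most like Shank1 were Dlgap4, a further member of the Dlgap family (0.90), and Grik5 (0.89), and those most like Shank2 were Dlgap4 (0.91) and Clec16a (0.88). For Dlg4 they were Rapgef1 and Ppp6r1 (both 0.89), for Dlg2 Pafah1b1 (0.91) and Tmod2 (0.90), and for Dlg3 5730409E04Rik (0.95) and Ywhah (0.93). For Dlgap1 they were Cplx2 and Smoc2 (both 0.90), for Dlgap2 Trim2 (0.96) and Prkce (0.93), and for Dlgap3 Agpat3 and Insyn1 (both 0.93). Dlg1 had no close match, with 0.78 for Racgap1 and 0.77 for Sgtb.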

How the data were processed

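RNA-seq of 24 cultures was deposited as transcript tables. The authors made the estimated counts and TPM of each transcript with FastQC, cutadapt and kallisto, per the submitters' processing notes; versions, index and genome build are not given in the sources used here. Of the transcripts, 99.2% matched GENCODE M21 (GRCm38), and their counts were added up by gene, then rounded to whole numbers. edgeR 4.0.16 (R 4.3.3) fitted a quasi-likelihood model to all genes with TMM scaling and filterByExpr, separately for DIV7 (4 libraries, 2 residual degrees of freedom) and DIV18 (20 libraries, 12), and together for the age difference. P-values were adjusted by Benjamini-Hochberg over all genes tested, with a threshold of 0.05. Unlabelled intervals are 95%. DESeq2 1.42.0 and other alternatives were run, and the fits were tested on simulated data. Named genes are the 10 members, Homer1, Arc, Dlgap4, up to 4 called partners per comparison, example markers and the 2 genes most correlated with each member. The members and lists were chosen with earlier results of these data known. Replicate numbers paired the samples where 3 pairs each correlated above 0.1, as a hint from the data: knockout with vector KCl against rest (0.14, 0.20 and 0.35), WT against vector under KCl (0.24, 0.24 and 0.40) and S586E against vector (0.41, 0.22 and 0.37). Comparisons with 2 pairs were not counted as paired. Among these, both pairs were above 0.1 for KCl at DIV7 (0.18) and for WT against NT at rest (0.26). The same held for WT against NT under KCl (0.34 and 0.31) and S586E against NT (0.13 and 0.11). RefSeq promoter windows matched 7 of the 10 members. The value of 1 called partner gene is not reported here.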

Additional observations from a re-analysis of the deposited data

How the results depend on the processing

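None of the 14 log2 fold changes of single genes that were recomputed (Dlg1, Dlg2, Dlg4, Dlgap1 and Shank1 at DIV7, Shank3, Dlgap2 and Dlgap3 against NT, Dlg1 between ages) changed direction; the ratio of levels between ages did. GC offsets, the crossed pairing and the alternatives for Shank3-203 were chosen after seeing the data. Calls over all genes moved with the settings too. For KCl at DIV7 they went from 3371 of 19822 to 4896 of 39819 without the filter. Length offsets gave 2335 of 19822 and the replicate block 5857 of 19822. With the block the 1236 with vector at rest became 1695. For WT against NT under KCl the 42 of 20940 became 336 of 41141 with DESeq2 and 704 of 41147 without the filter. The counts of scaffold genes called moved as follows. For KCl at DIV7 (3 called), 5 passed without the low-count filter, 0 with effective length offsets and 7 with a replicate block, and leaving out 1 library gave 1 to 3. For the knockout with vector against NT at rest (1 called), 2 passed with the replicate block, Dlg3 being the second, and leave-one-out gave 1 to 2. Under KCl (2 called), 1 passed with RLE size factors, with effective length offsets, with protein_coding transcripts alone and with GC offsets, and leave-one-out gave 1 to 2; with the replicate block 3 passed. For WT against NT at rest (1 called), 0 passed when the groups compared were fitted alone and with GC offsets, and leave-one-out gave 0 to 1. For WT against NT under KCl (1 called), DESeq2 and the fit without the filter gave 5, and length offsets, coding transcripts, GC offsets and the groups compared, fitted alone, gave 0, as did leaving out any 1 library. For S586E against NT (1 called), GC offsets gave 0 and leave-one-out 0 to 1. For S586A against NT (0 called), DESeq2 gave 2, no filter 3 and the replicate block 2. Over all genes these settings called 377 of 41141, 653 of 41147 and 310 of 20940, beside 90 of 20940 in the main fit. For the age difference (0 called), the fit without the filter gave 1 (Dlg1). That fit called 657 of 44879 genes, beside 408 of 22459 in the main fit. In the 3 comparisons where the numbers pair the samples the block left the count at 0. In NT, KCl against rest, same-numbered samples correlated at -0.19, and crossing the numbers also gave 0. The median log2 ratio of levels between ages was -0.62 in TPM and 0.80 after rescaling. Calls over all genes for the knockout with vector under KCl were 546 with RLE size factors, 278 with length offsets and 284 with GC offsets. Coding transcripts gave 479 of 15155 there, and the replicate block 835. Against NT, GC offsets gave 18 for WT at rest, 9 for WT under KCl and 430 for S586E. The causes of these shifts were not tested. The DIV7 fit had 2 replicates a state, and NT had 2 in each state, so single libraries carry much of each estimate. Over all genes, leaving out 1 library took the 3371 calls at DIV7 to between 1459 and 2630, the 1236 with vector at rest to between 100 and 1031, and the 560 under KCl to between 37 and 241.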
